A study of Mus musculus with 4 samples.

Results

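The small leucine-rich proteoglycans of FAPs were examined as a group of 10 genes, Dcn, Bgn, Fmod, Lum, Prelp, Ogn, Aspn, Omd, Podn and Chad, taken by symbol from a table of 24421 gene symbols. All 10 were listed, each was at 2 CPM (reads per 1e6 reads counted) or more in at least 2 libraries, and so all 10 were among the 11588 genes tested. The CPM given below are on library sizes scaled by the TMM method. FAPs, or fibro-adipogenic progenitors, belong to the stroma of skeletal muscle. They were sorted from 2 wild-type mice as live (PI-) cells that lacked CD31 and CD45 and carried Sca1, and were split by the surface peptidase DPPIV, the product of Dpp4, which gave 4 bulk RNA libraries. Both mice had received a CSF1R inhibitor, which depletes macrophages, for 3 weeks and had then returned to a regular diet for 3 days. DPPIV- and DPPIV+ FAPs shared this treatment and no untreated mice are compared here. The labels give the tibialis anterior as tissue, while the dissection described covers both hindlimbs. The study used adult mice of both sexes, and the age and sex of these mice are not given in the sources used here.

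Small leucine-rich proteoglycans are secreted proteins with a core of leucine-rich repeats that curves around its ligands. Most bind collagen fibrils and set fibril spacing and diameter, and several bind growth factors or cell surface receptors. In muscle they are made chiefly by fibroblastic cells and are found in the endomysium, perimysium, fascia and tendon. The family is divided by sequence into class I (Dcn, Bgn and Aspn), class II (Fmod, Lum, Prelp and Omd, with Kera), class III (Ogn, with Epyc and Optc) and the non-canonical classes IV (Chad, with Nyx and Tsku) and V (Podn, with Podnl1). Classes I and II differ in their sugar chains, chondroitin or dermatan sulfate in Dcn and Bgn and keratan sulfate in Fmod, Lum and Omd, and Aspn carries none.

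Between 18240110 and 20879405 reads were counted on genes per library, and 3 reads, the limit that a count of 0 allows, were worth between 0.143 and 0.166 CPM. Dpp4 had 89.6 and 39.6 CPM in the DPPIV- libraries of mouse 1 and mouse 2 and 727 and 574 CPM in the DPPIV+ libraries, so the gene of the sorting marker followed the labels. The FAP marker Pdgfra had at least 1157 CPM in every library. The summed level of 5 markers of macrophages and blood was at most 89.1 CPM, and that of 5 markers of satellite cells and myofibres at most 44.1 CPM. That of 5 endothelial markers was 242 and 184 CPM in DPPIV- FAPs and 503 and 457 CPM in DPPIV+ FAPs. Among them Tek was higher in DPPIV+ FAPs, at a mean of 446 against 168 CPM. By edgeR, which called 17.2% of all genes tested lower, 3 others were lower, but 0 by DESeq2. With 2 mice the model leaves 1 residual degree of freedom, and the spread of each gene is taken from genes of like abundance. The prior degrees of freedom were infinite, so a gene's own spread between these 4 libraries had no weight in its p-value.

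DPPIV+ FAPs had more RNA of Chad, Fmod, Omd, Aspn and Ogn and less of Bgn, Podn, Lum and Dcn than DPPIV- FAPs of the same mice. The fitted log2 fold changes of DPPIV+ over DPPIV- FAPs ran from -1.31 for Bgn to 2.69 for Chad. Of the 10 genes, 5 were higher, 4 were lower and Prelp did not pass an adjusted p of 0.05 (edgeR quasi-likelihood, or QL, F test, adjusted over all genes tested by the Benjamini-Hochberg method). Among all genes tested 33.0% passed in either direction, 15.9% higher and 17.2% lower, and among the genes of at least 100 CPM 53.0% passed. The median log2 fold change of the 10 genes was 0.30, beside -0.00 over all genes. In all 10 the direction was the same in both mice and the CPM of the populations did not overlap, which held for 72.9% and 56.3% of all genes. Against a fold change of 1.5, passed by 9.42% of all genes, 6 of the 10 remained past the threshold, Chad, Fmod and Omd higher and Bgn, Podn and Lum lower. In bulk RNA, fewer cells that make a transcript and less of it per cell cannot be told apart.

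**Figure D1:**
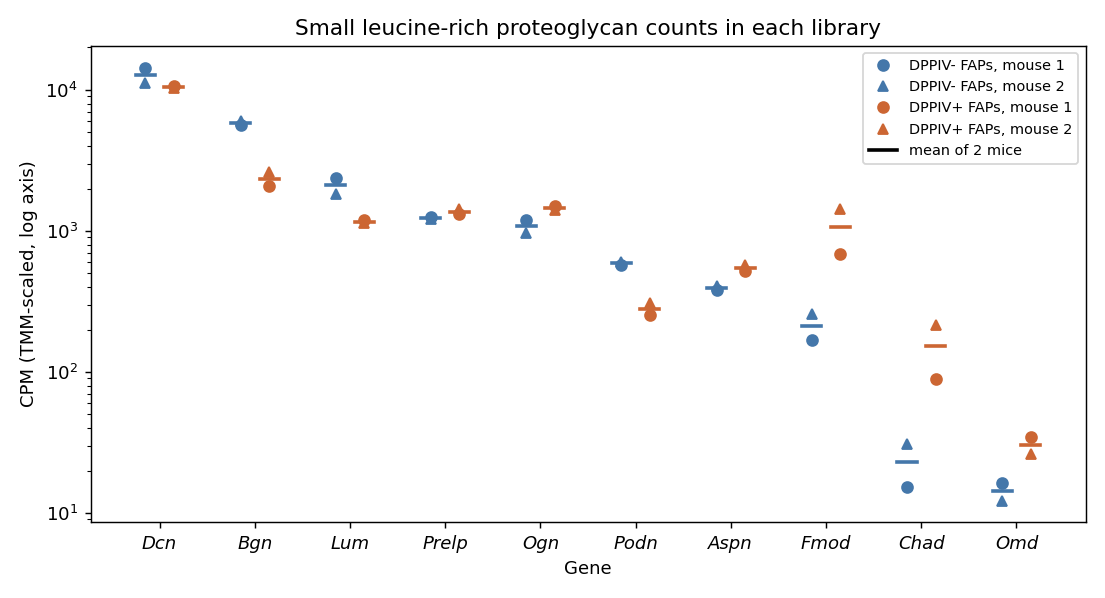
CPM of the 10 genes (log axis) in the 4 libraries, with DPPIV- FAPs in blue and DPPIV+ FAPs in orange, circles for mouse 1, triangles for mouse 2 and a bar for the mean of 2 mice. Dcn lies highest, at 10287 CPM or more in all libraries, and Chad and Fmod show both the largest rise in DPPIV+ FAPs and the widest spread between the mice.

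In class I, the 3 genes moved in different directions. Bgn (biglycan), which binds collagen and also signals through Toll-like receptors when released from the matrix, had 5637 CPM in mouse 1 and 5979 CPM in mouse 2 in DPPIV- FAPs, and 2098 and 2604 CPM in DPPIV+ FAPs. Both DPPIV+ libraries lay well under both DPPIV- libraries. Its level fell 2.48-fold, a log2 fold change of -1.31 (SE 0.08, adjusted p = 1.49e-59, edgeR QL F test), and its place among all genes by CPM went from 11 to 38. Dcn (decorin), the archetype of the family, which binds collagen and sequesters TGF-beta, had 14406 and 11237 CPM in DPPIV- FAPs and 10622 and 10287 CPM in DPPIV+ FAPs. Both DPPIV+ libraries were below both DPPIV- libraries, but the means of the populations, 10455 and 12822 CPM, lay closer together than the 2 DPPIV- libraries. The log2 fold change of Dcn was -0.28 (SE 0.09, adjusted p = 0.00366, edgeR QL F test), -0.44 in mouse 1 and -0.13 in mouse 2. Without the mouse block its adjusted p was 0.197 in the same test. Aspn (asporin), which also binds collagen and TGF-beta, had 380 and 408 CPM in DPPIV- FAPs and 521 and 571 CPM in DPPIV+ FAPs. Both DPPIV+ libraries were above both DPPIV- libraries, and the log2 fold change was 0.47 (SE 0.07, adjusted p = 7.24e-11, edgeR QL F test), 0.46 in mouse 1 and 0.48 in mouse 2.

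In class II, Fmod and Lum changed in opposite directions. Fmod (fibromodulin), a tendon proteoglycan that shares a collagen binding region with lumican, had 167 CPM in mouse 1 and 259 CPM in mouse 2 in DPPIV- FAPs, and 688 and 1442 CPM in DPPIV+ FAPs. Mouse 2 was the higher in both populations, and the lower DPPIV+ library was still above the higher DPPIV- library. The log2 fold change was 2.26 (SE 0.07, adjusted p = 2.80e-199, edgeR QL F test), 2.04 in mouse 1 and 2.48 in mouse 2, and the gene went from place 657 to 115 by CPM. Lum (lumican), known for the spacing of fibrils in cornea, tendon and skin, had 2392 and 1833 CPM in DPPIV- FAPs and 1188 and 1134 CPM in DPPIV+ FAPs. The DPPIV+ libraries were close together and both were below the DPPIV- libraries. Its log2 fold change was -0.85 (SE 0.07, adjusted p = 1.17e-29, edgeR QL F test), -1.01 in mouse 1 and -0.69 in mouse 2.

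Omd (osteomodulin), first known from mineralised tissue, was the least counted of the 10, with 342 and 240 reads in DPPIV- FAPs and 620 and 476 reads in DPPIV+ FAPs. As CPM these were 16.3 and 12.2 against 34.4 and 26.1. Mouse 1 was the higher in both populations, and the rise was alike in both mice, with log2 ratios of 1.08 and 1.09 (fitted 1.08, SE 0.10, adjusted p = 8.44e-24, edgeR QL F test). The Omd transcript holds stretches of 150 to 179 bases at least 97% identical to transcripts of 17 other genes, and how reads that match several places were counted is not given in the sources used here. Prelp, which anchors basement membranes to collagen through heparan sulfate, had 1249 and 1218 CPM in DPPIV- FAPs and 1321 and 1421 CPM in DPPIV+ FAPs. These 4 values lay closer together than those of any other of the 10 genes relative to their mean. The log2 fold change of Prelp was 0.15 (95% interval 0.01 to 0.29, adjusted p = 0.0947, edgeR QL F test). Unlike this p-value, the interval is not adjusted for the number of genes tested. Corrected for GC content and length, Prelp had a log2 fold change of 0.25 and an adjusted p of 0.00297 in the same test. Of its exon bases, 350 are shared with the antisense gene Gm15851.

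In the other classes, Ogn (osteoglycin, also called mimecan) was the class III gene with the most reads. It had 1192 and 963 CPM in DPPIV- FAPs and 1501 and 1412 CPM in DPPIV+ FAPs, so that both DPPIV+ libraries were the higher. The log2 fold change was 0.44 (SE 0.07, adjusted p = 6.84e-09, edgeR QL F test). Chad (chondroadherin), a cartilage and tendon protein that binds collagen and an integrin of the collagen receptor family, had 321 and 606 reads in DPPIV- FAPs and 1616 and 3911 reads in DPPIV+ FAPs. As CPM these were 15.3 and 30.9 against 89.6 and 214. Mouse 2 was again the higher in both populations, and the populations did not overlap. The level rose 6.44-fold, a log2 fold change of 2.69 (SE 0.07, adjusted p = 1.14e-269, edgeR QL F test), 2.55 in mouse 1 and 2.79 in mouse 2. Chad lies within the gene Acsf2 on the opposite strand and shares 0 exon bases with it. Acsf2 had 401 and 405 reads in DPPIV- FAPs and 163 and 181 in DPPIV+ FAPs, the opposite direction to Chad (Acsf2 and other neighbours were named after their values were seen). Podn (podocan), a class V gene known for restraint of smooth muscle growth, had 578 and 602 CPM in DPPIV- FAPs and 252 and 307 CPM in DPPIV+ FAPs. Both mice showed the decrease, and the log2 fold change was -1.09 (SE 0.07, adjusted p = 3.07e-53, edgeR QL F test), a 2.12-fold lower level.

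**Figure D2:**
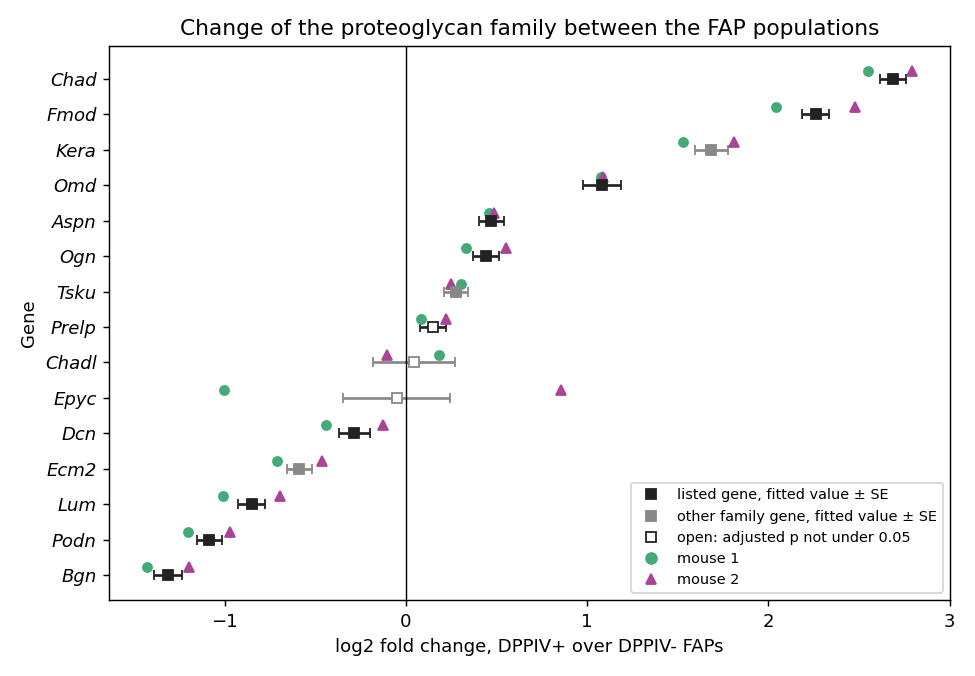
Log2 fold change of DPPIV+ over DPPIV- FAPs for the 15 family genes tested, with squares for the fitted value (bars are the SE, open squares have an adjusted p not under 0.05), green circles for mouse 1 and purple triangles for mouse 2. The SE leaves out a gene's own spread between the mice. Chad, Fmod, Kera and Omd lie on the right from 2.69 to 1.08, and Bgn, Podn and Lum on the left from -1.31 to -0.85, and Epyc, which did not pass, is the one gene whose mice lie far apart on either side of 0.

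Of 8 further genes of the family, 5 were tested. Kera (keratocan), a keratan sulfate proteoglycan of cornea and tendon, rose from 256 and 381 reads in DPPIV- FAPs to 636 and 1243 reads in DPPIV+ FAPs, with a log2 fold change of 1.69 (SE 0.09, adjusted p = 6.33e-75, edgeR QL F test). Ecm2, a class I relative with an added cysteine-rich domain, fell by 0.59 on the log2 scale (SE 0.07, adjusted p = 6.79e-17, same test in edgeR). Tsku (tsukushi), a secreted modulator of BMP and Wnt signals, had a log2 fold change of 0.28 (adjusted p = 0.000166, same test in edgeR), but 0.122 was its adjusted p by DESeq2 and 0.157 by edgeR without the mouse block. Chadl (log2 fold change 0.04, adjusted p = 0.917) and Epyc (-0.05, adjusted p = 0.930) did not pass in the edgeR QL F test. Chadl, with 72 to 86 reads per library, shares 1023 exon bases with L3mbtl2 on the opposite strand, which had 182 to 216 reads. Over the whole family of 18 genes, 15 were tested, 7 were higher, 5 were lower and 3 were not called. Optc and Nyx, genes of the eye, had between 3 and 17 reads per library. Podnl1, the relative of Podn, was below the filter, with 18 and 57 reads in DPPIV- FAPs and 1 and 3 reads in DPPIV+ FAPs. Tested without a filter on low counts, its adjusted p was 6.32e-08 (edgeR QL F test).

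Compared per length, as CPM per kilobase of union exon (RPKM), Dcn was first of the 10 genes in both populations, with a mean level of 2196 RPKM in DPPIV- FAPs and 1791 RPKM in DPPIV+ FAPs. In DPPIV- FAPs it was followed by Bgn at 952 RPKM and Lum at 863 RPKM, whose libraries overlapped, then by Ogn, Prelp, Aspn, Podn, Fmod, Chad and Omd, whose neighbours did not overlap. In DPPIV+ FAPs the order after Dcn was Ogn at 568 RPKM, Lum at 474, Bgn at 386, Prelp at 379, Fmod at 322, Aspn at 232, Chad at 90.4, Podn at 65.4 and Omd at 13.4 RPKM. There Bgn and Prelp, Prelp and Fmod, Fmod and Aspn, and Chad and Podn overlapped between mice. Bgn rests on its length, since its union of exons is 6099 bases and its longest transcript 2666 bases. Over the longest transcript its level was 2179 RPKM in DPPIV- FAPs and 882 RPKM in DPPIV+ FAPs, where it then came after Dcn and before Ogn.

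Some ratios between genes of the family moved more than their sum. The 10 genes took 2.61% and 2.30% of all reads in DPPIV- FAPs and 1.81% and 1.91% in DPPIV+ FAPs, so that the DPPIV+ shares were the lower without overlap. Dcn made up between 39.3% and 44.5% of the summed RPKM of the 10 genes in every library. Bgn made up 16.7% and 20.5% of it in DPPIV- FAPs and 8.28% and 9.52% in DPPIV+ FAPs. Fmod went the other way, from 0.913% and 1.64% to 5.0% and 9.72%. The RPKM ratio of Lum to Fmod, which compete for one site on collagen, was 19.3 and 9.56 in DPPIV- FAPs and 2.33 and 1.06 in DPPIV+ FAPs. The ratio of Bgn to Aspn was 5.72 and 5.65 against 1.55 and 1.76, and that of Dcn to Bgn was 2.67 and 1.96 against 5.29 and 4.13. None of these 3 ratios overlapped between the populations. Other ratios moved less, such as that of Fmod to Chad, which was 5.55 and 4.26 in DPPIV- FAPs and 3.9 and 3.42 in DPPIV+ FAPs. Over the longest transcripts the ratio of Bgn to Aspn was 12.8 or more in DPPIV- FAPs against 3.51 and 3.98, that of Dcn to Bgn was 1.45 and 1.07 against 2.88 and 2.24, and the share of Bgn was 28.7% and 34.3% against 15.5% and 17.7%, again without overlap. The ratios restate the changes above on another scale, and no test was made of them.

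**Figure D3:**
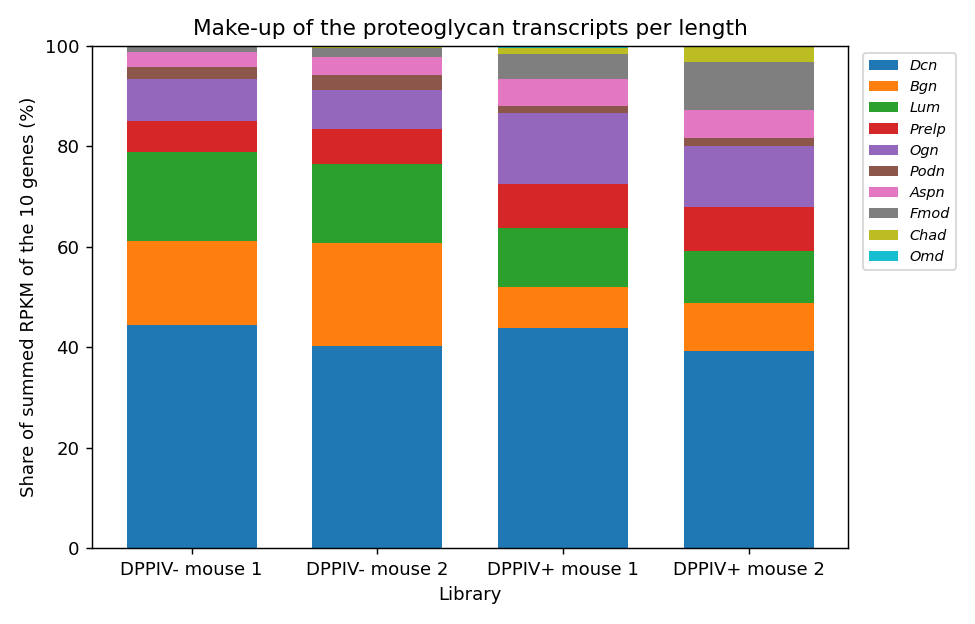
Share of the summed RPKM of the 10 genes (%) in each of the 4 libraries, stacked by gene. Dcn keeps 39.3% to 44.5% throughout, the Bgn band narrows from 16.7% and 20.5% in DPPIV- FAPs to 8.28% and 9.52% in DPPIV+ FAPs, and the Fmod band widens from 0.913% and 1.64% to 5.0% and 9.72%. Lengths are unions of exons, and over the longest transcripts the Bgn share is 28.7% and 34.3% against 15.5% and 17.7%.

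Of the 10 genes, 7 lie in 3 clusters of the genome, given here from GENCODE release M21 on GRCm38, the build named mm10. On chromosome 13 (49504810 to 49624501), Ecm2, Aspn, Omd and Ogn stand in this order on the plus strand over 119.7 kb. In the order given, the log2 fold changes were -0.59, 0.47, 1.08 and 0.44, so Ecm2 alone was lower in DPPIV+ FAPs. Cenpp, which spans all 4 on the opposite strand and shares 7 exon bases with Aspn, had 6 to 12 reads per library. On chromosome 10 (97479609 to 97682454), Dcn and Lum were lower, Kera beside them was higher, and Epyc did not pass. On chromosome 1 (133897199 to 134048277), Fmod was higher, Prelp did not pass and Optc was not tested. Bgn lies on the X chromosome (73483602 to 73495933), Podn on the minus strand of chromosome 4 (108014791 to 108096445) and Chad on chromosome 11 (94565047 to 94569127). Thus both clusters were mixed: on chromosome 13 Aspn, Omd and Ogn rose while Ecm2 fell, and on chromosome 10 Dcn and Lum fell while Kera rose.

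**Figure D4:**
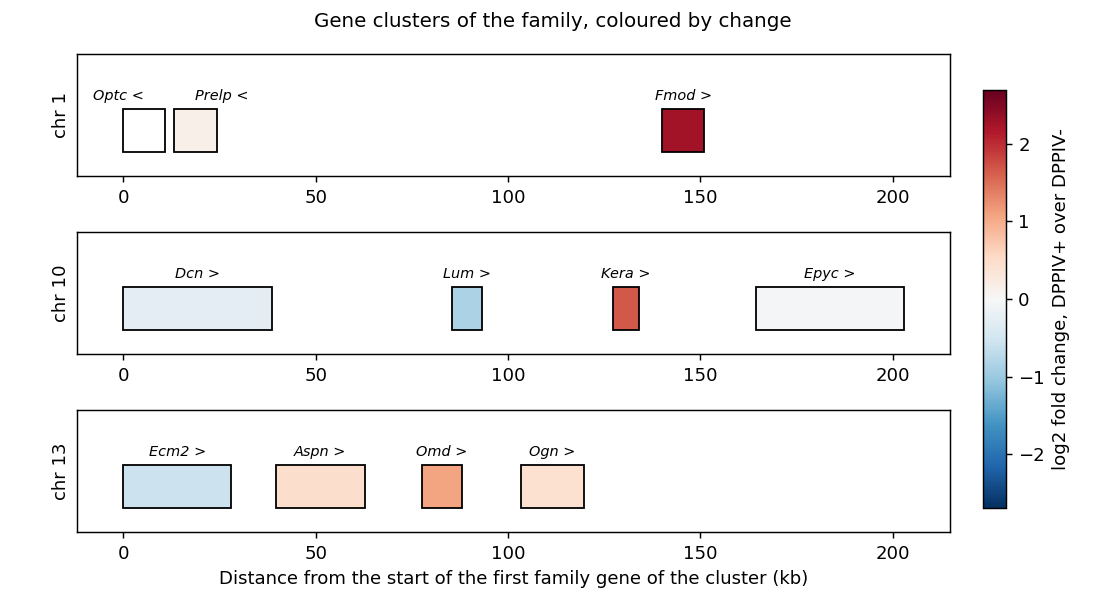
The 3 gene clusters of the family on chromosomes 1, 10 and 13, drawn to scale as distance in kb from the first family gene, with arrowheads for strand and colour for the log2 fold change of DPPIV+ over DPPIV- FAPs (red higher, blue lower, white not tested). In the chromosome 13 cluster of 119.7 kb Aspn, Omd and Ogn are red and Ecm2 is blue, and in the chromosome 10 cluster Kera is red between blue Lum and nearly white Epyc.

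The sequences just before the start sites of Aspn, Omd and Ogn, the neighbours that rose together, and of Chad, which rose the most, are shown to compare their promoters. RefSeq on GRCm38.p6 gave windows for 8 of the 10 genes and 15 of the 18 family genes. The 250 bases before the RefSeq start are printed on the plus strand from chr13:49544193-49544442 for Aspn, chr13:49582212-49582461 for Omd, chr13:49607765-49608014 for Ogn and chr11:94564797-94565046 for Chad. Capitals mark matches on either strand to TATAAA (the TATA box), CAGCTG (an E-box, the core bound by bHLH factors) and GGAATG (the TEAD motif). A match is one of sequence alone, and whether any of them works as such an element was not tested. TGANTCA (the AP-1 motif) was searched too and was found in 0 windows of the family.
Aspn: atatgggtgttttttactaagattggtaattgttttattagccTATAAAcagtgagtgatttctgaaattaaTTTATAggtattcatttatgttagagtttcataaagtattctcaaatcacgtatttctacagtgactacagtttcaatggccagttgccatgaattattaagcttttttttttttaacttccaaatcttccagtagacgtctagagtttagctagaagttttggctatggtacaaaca
Omd: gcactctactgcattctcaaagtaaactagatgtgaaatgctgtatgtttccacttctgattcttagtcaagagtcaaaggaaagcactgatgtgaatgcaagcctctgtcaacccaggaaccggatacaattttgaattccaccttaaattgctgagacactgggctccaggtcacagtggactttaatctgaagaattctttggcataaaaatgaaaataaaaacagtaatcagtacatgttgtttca
Ogn: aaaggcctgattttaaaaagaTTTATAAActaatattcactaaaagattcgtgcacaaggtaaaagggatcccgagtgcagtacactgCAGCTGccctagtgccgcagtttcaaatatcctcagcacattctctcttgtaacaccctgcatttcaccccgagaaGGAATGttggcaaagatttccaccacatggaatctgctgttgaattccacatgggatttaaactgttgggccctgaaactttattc
Chad: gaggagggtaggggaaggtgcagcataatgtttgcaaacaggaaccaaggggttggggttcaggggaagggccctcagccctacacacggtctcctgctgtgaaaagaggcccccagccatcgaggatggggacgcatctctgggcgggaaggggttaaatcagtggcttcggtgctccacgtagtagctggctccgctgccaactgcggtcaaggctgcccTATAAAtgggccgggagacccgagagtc
TATAAA was found 28 bases before the start of Chad, at 207 and 178 bases before that of Aspn, and at 229 and 227 before that of Ogn, where the matches on both strands overlap. It was held by 12.4% of all 32851 windows of this length. CAGCTG stood 162 bases before the start of Ogn and also occurred in the windows of Bgn, at 102 bases, of Podn, at 61 bases in 1 of its 2 windows, and of Optc, at 111 bases (4271 of all windows hold it). GGAATG stood 86 bases before the start of Ogn (12.6% of all windows), and the windows of Omd, Fmod and Prelp held none of the 4 motifs. No searched motif was thus common to all of Aspn, Omd and Ogn, since Omd held none. TATAAA was held by Aspn, Ogn and Chad alone among the 15 family genes with a window.

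The proteins that these proteoglycans bind and the enzymes that modify them changed in both directions. Beside the counts here and in the paragraphs on sugar chains, proteases and receptors, edgeR called 15.9% of all genes tested higher and 17.2% lower. DESeq2 called 16.6% of them in either direction. Of 13 genes of fibrillar collagens and their partners, 12 were tested, 3 were higher and 7 were lower in DPPIV+ FAPs, with a median log2 fold change of -0.24. Col6a3 (-0.65) and Col1a1 (-0.40) fell, while Col11a1, a nucleator of thin fibrils, had a log2 fold change of 1.21. Its adjusted p was 0.106 without the mouse block (edgeR QL F test), where 0 of the collagens passed as higher. For Col3a1 the log2 fold change was -0.16 (adjusted p = 0.202, edgeR QL F test).

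Of 8 genes of keratan sulfate synthesis, 6 were tested, with 1 higher and 3 lower, and by DESeq2 1 was lower. The one higher was Chst1, the galactose 6-O-sulfotransferase of keratan sulfate, with 5.15 and 4.28 CPM in DPPIV- FAPs and 56.5 and 47.5 CPM in DPPIV+ FAPs. Both DPPIV+ libraries were far above the DPPIV- libraries, with a log2 fold change of 3.46 (SE 0.11, adjusted p = 2.98e-197, edgeR QL F test). Chst2, which sulfates N-acetylglucosamine, fell from a mean of 23.4 to 11.7 CPM. Of 22 genes for the linker and the chondroitin or dermatan sulfate chains, 20 were tested, with 5 higher and 5 lower. By DESeq2 or without the mouse block 2 were higher, with the GC and length correction 8 were higher, and with upper-quartile scaling 8 were lower. Chst11 (-1.39) and Csgalnact1 (-0.63) fell and Chst15 (1.23) rose. Of the 2 tyrosine sulfotransferases, which act on Fmod, Lum and Omd, Tpst2 rose by 0.57 on the log2 scale.

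Of 12 genes of proteases known to cut these proteoglycans or their precursors, 11 were tested, with 4 higher and 5 lower, while by DESeq2 2 were higher and without the mouse block 3 were lower. Adamts5 had 578 and 476 CPM in DPPIV- FAPs and 1308 and 1127 CPM in DPPIV+ FAPs (1.21 as log2 fold change), and Bmp1, which processes the Bgn precursor, rose by 0.58 on the log2 scale. Mmp13 had a log2 fold change of -2.18, but -3.14 in mouse 1 and -1.08 in mouse 2, and an adjusted p of 0.109 by DESeq2. Mmp2 fell by 0.30. Of 11 receptors for the family, 6 were higher and 2 were lower, and 1 was lower by DESeq2 or without the mouse block. Met, a receptor bound by Dcn, rose by 2.22 and Itga2, the collagen receptor subunit bound by Chad, by 1.79 on the log2 scale. P2rx7, which is engaged by Bgn, fell by 1.17. Of 6 TGF-beta ligands and receptors, 2 were higher (Tgfbr2 with 0.88 the more so) and 3 were lower (Tgfb1 with -0.65 the most so), of which 1 was lower without the mouse block.

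Fmod and Chad also differed between the mice. In mouse 2 the level of Fmod was higher by 0.86 on the log2 scale (SE 0.07, adjusted p = 1.21e-30) and that of Chad by 1.17 (SE 0.07, adjusted p = 7.56e-55, both edgeR QL F test of the mouse term). Lum was lower in mouse 2 (-0.23, adjusted p = 0.0263) and so was Omd (-0.41, adjusted p = 0.00247, same test in edgeR). These were 4 of the 10 genes, beside 8.98% of all genes tested, 4.47% of them higher and 4.51% lower in mouse 2. DESeq2 and the test against a fold change of 1.5 called Fmod and Chad alone. Kera was higher in mouse 2 by 0.84 (adjusted p = 1.52e-18, edgeR QL F test). With 1 animal behind each value, these are differences between 2 animals and of no known condition.

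Some markers of tenocytes, the fibroblasts of tendon, moved with the same libraries as Fmod and Chad. Of 7 tenocyte markers, 4 were higher in DPPIV+ FAPs and 3 were lower, median 1.27 on the log2 scale. Over all genes tested, 15.9% were higher and 17.2% were lower. Between the mice, 6 of 7 were higher in mouse 2, beside 4.47% of all genes, with a median of 0.73. Tnmd, a tendon membrane protein, had 26.7 and 30.9 CPM in DPPIV- FAPs and 52.9 and 89.4 CPM in DPPIV+ FAPs. Scx, the tendon transcription factor, had 18 and 34 reads against 66 and 143 reads. In both genes mouse 2 was the higher in each population, as for Fmod and Chad. Cilp2 (2.52) and Mkx (1.44) were higher too, with an adjusted p for Mkx of 0.0647 without the mouse block (edgeR QL F test). Thbs4, Comp and Fibin were lower. Fibin had 74.0 and 61.0 CPM in DPPIV- FAPs and 51.2 and 47.8 CPM in DPPIV+ FAPs (-0.44 as log2 fold change, adjusted p = 1.30e-09, edgeR QL F test), was also called lower by DESeq2 (adjusted p = 0.00841), and was not higher in mouse 2. Thbs4 had 1598 and 2092 CPM in DPPIV- FAPs and 1151 and 2213 CPM in DPPIV+ FAPs, with log2 ratios of -0.47 in mouse 1 and 0.08 in mouse 2. Its adjusted p was 0.026 by the edgeR QL F test and 0.851 by DESeq2. Comp had a log2 fold change of -0.56, with -0.81 in mouse 1 and -0.32 in mouse 2 and adjusted p-values of 0.0953 by DESeq2 and 0.318 by edgeR without the mouse block. The summed level of the 7 markers was 1886 and 2449 CPM in DPPIV- FAPs and 1409 and 2646 CPM in DPPIV+ FAPs, which overlapped, and 0 of the markers were at 0. The part of tenocytes in the results for Fmod and Chad was not tested.

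**Figure D5:**
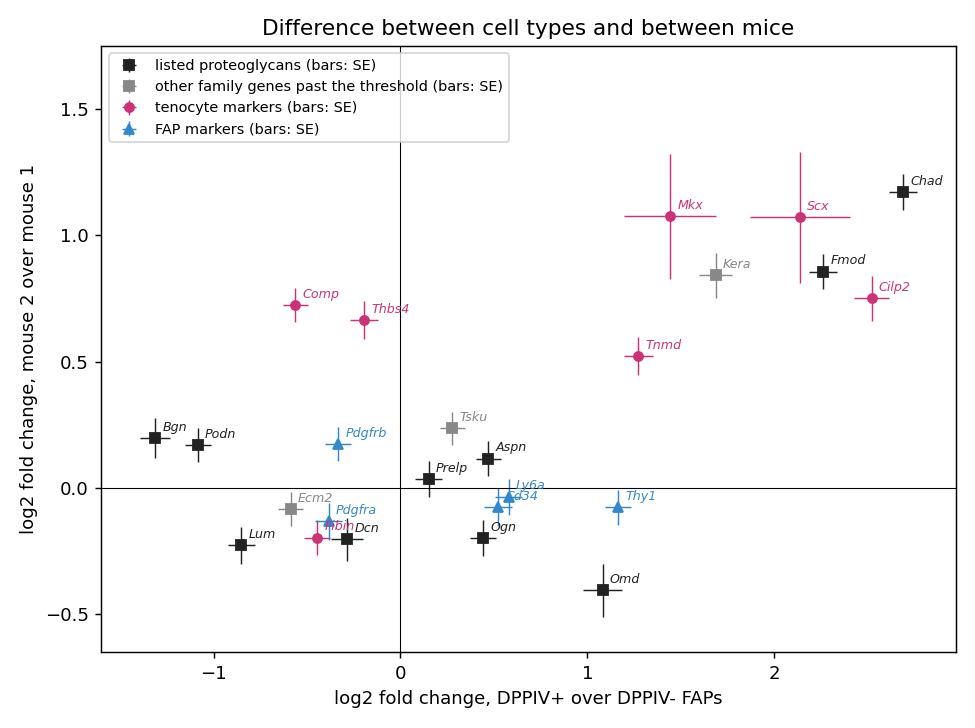
Log2 fold change of DPPIV+ over DPPIV- FAPs (horizontal) against that of mouse 2 over mouse 1 (vertical), for the 10 genes (black squares), other family genes past the threshold (grey squares), tenocyte markers (pink circles) and FAP markers (blue triangles), with bars for the SE. The SE leaves out a gene's own spread between libraries. Chad (2.69 and 1.17) and Fmod (2.26 and 0.86) lie at the upper right with Kera and the tenocyte markers Scx, Mkx, Cilp2 and Tnmd. The other tenocyte markers, Thbs4 (-0.20 horizontally), Comp (-0.56) and Fibin (-0.44), lie on the left. Omd lies at 1.08 and -0.41. The FAP markers lie apart, with Pdgfra (-0.38) and Pdgfrb (-0.33) on the left and Ly6a (0.58), Cd34 (0.52) and Thy1 (1.16) on the right. Aspn (0.47) and Ogn (0.44) lie near Ly6a and Cd34, and Dcn (-0.28) lies near Pdgfra.

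Chad and Omd were first known from skeletal tissue. Of 7 markers of chondrocytes and osteoblasts 2 were tested and both were lower in DPPIV+ FAPs, Runx2 by a log2 fold change of -1.95 and Sox9 of -1.08, while Sp7, Bglap and Ibsp had at most 2 reads in any library. The cartilage matrix gene Matn3 had 2 and 7 reads in DPPIV- FAPs and 6 and 10 in DPPIV+ FAPs, and Acan 8 and 13 against 3 and 16, and both overlapped. Col2a1, the main collagen of cartilage, which is in the collagen list and was under the filter, had 6 and 11 reads in DPPIV- FAPs and 34 and 41 in DPPIV+ FAPs, higher in both mice as Chad was. Of the 5 FAP markers, Pdgfra (-0.38) and Pdgfrb (-0.33) were lower and Ly6a (0.58), Cd34 (0.52) and Thy1 (1.16) were higher, and for Pdgfrb the adjusted p without the mouse block was 0.0756 (edgeR QL F test). Ly6a encodes Sca1, which was itself part of the sort. Of 6 mural cell markers 5 were lower in DPPIV+ FAPs, median -1.04 on the log2 scale, and had a summed level of 121 and 123 CPM against 51.1 and 63.4 CPM. By DESeq2 or without the mouse block, 3 of them were lower. Over all genes tested, 17.2% were lower by edgeR, and 16.6% passed in either direction by DESeq2. The part of mural cells in the decrease of Bgn, Podn and Lum was not tested.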

How the data were processed

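Bulk RNA of 4 libraries was analysed, DPPIV- and DPPIV+ FAPs of each of 2 mice, numbered in the order of the animal numbers in the labels. The authors demultiplexed reads with bcl2fastq 2.20, aligned them to mm10 with STAR, per the study's methods counted them on genes with RnaReadCounter, and deposited raw counts per symbol; the submitters' processing notes also name Bowtie. The annotation release and strand setting are not given in the sources used here, and the labels and the paper name different stranded kits. The table held 0 repeated symbols, and 7548 symbols at 0 in all libraries.

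Genes that reached 2 CPM in 2 or more libraries were tested in edgeR 4.0.16 (R 4.3.3) with TMM, mouse and cell type as terms, as in the study's methods, quasi-likelihood (QL) F tests without robust moderation, two-sided, and Benjamini-Hochberg adjustment at 0.05. The prior degrees of freedom were infinite. SE is the log2 fold change over the square root of F, so it leaves out a gene's own spread as the p-value does. Ratios per mouse used a prior count of 0.125. The pairing comes from the animal numbers in the labels, and the differences between mice in the DPPIV- and DPPIV+ libraries were correlated over genes at 0.415, a description, since genes are no replicates. Levels are CPM on TMM-scaled library sizes, per library or as the mean over 2 mice, with union exon lengths of GENCODE M21 for RPKM. The filter used CPM without this scaling. Limits at 0 counts cover counting error alone.

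Alternatives were DESeq2 1.42.0, no mouse block, RLE and upper-quartile scaling, no filter, 2 CPM in at least 3 libraries, robust moderation, a test against a fold change of 1.5, loess offsets for GC content and length (span 0.5, 11205 genes, 96.7%) with the block, each mouse left out, and for levels the longest transcript. Genes are named if they are family members, or up to 6 per list past the threshold by size of change, or markers. BLAST 2.17.0 looked for like transcripts (97% identity or more over 50 bases or more). Scripts were tested on simulated data first. The members and lists were chosen with earlier results of these data known. Reads were not analysed here.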

Additional observations from a re-analysis of the deposited data

How the results depend on the processing

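Of 90 log2 fold changes of the 10 genes under 9 alternatives with a test, 85 kept their direction and their side of the threshold, 4 lost their call, 1 gained one (Prelp with the correction for GC content and length) and 0 reversed. With either mouse left out, 20 of 20 values kept their direction. Without the mouse block Dcn lost its call (adjusted p = 0.197, edgeR QL F test), which left 3 lower genes, and no other of the 10 changed its call by the block. The size of the adjusted p depended on the fit. For Chad it was 1.14e-269 in the main fit, 4.75e-20 with RLE scaling and 0.00454 without the block (edgeR QL F test). Against a fold change of 1.5, 3 of the 10 were higher (5 otherwise) and 3 lower, with Dcn, Aspn and Ogn lost. Over all genes, 1837 higher and 1989 lower became 1001 and 1119 without the block, 923 and 995 by DESeq2, and 436 and 656 against a fold change of 1.5. With the GC and length correction 2679 were higher and 1541 lower, so that 63.5% of the calls were higher, beside 48.0%. Upper-quartile scaling moved the balance the other way, with 1489 higher and 2295 lower, or 39.3% higher. Genes of the 10 that differed between the mice numbered 4, but 2 by DESeq2, 2 against a fold change of 1.5 and 7 without a filter. Without the 10 other genes with the most reads, the share of reads on the 10 genes was 2.89% in DPPIV- and 2.18% in DPPIV+ FAPs, beside 2.46% and 1.86%, and with either mouse left out it ran from 2.30% to 2.61% and from 1.81% to 1.91%. The log2 fold change of Thbs4 was -0.47 without mouse 2 and 0.0815 without mouse 1, where it turned. With robust moderation the adjusted p of Dpp4 was 0.178 (edgeR QL F test). Of 324 counts over the other lists, 48 moved by over 1.5 times, 20 of them against a fold change of 1.5, where a larger change is asked for, 11 without the block and 9 by DESeq2. The cause of the other shifts was not tested. Leaving out either mouse leaves 1 library per population, so log2 fold changes but no calls were computed. Depth limits listed genes under the filter, such as Podnl1, Optc, Nyx, Chst3, Chst5, Col2a1, Acan and Matn3, which had 57 reads or fewer per library.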

Other observations

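Sulfotransferases of the same pathways that were under the filter of 2 CPM in 2 libraries were not tested. Chst3, a chondroitin 6-O-sulfotransferase, had 57 and 38 reads in DPPIV- FAPs and 9 and 7 reads in DPPIV+ FAPs. Chst5, a keratan sulfate sulfotransferase, had 0 and 5 reads in DPPIV- FAPs against 7 and 26 reads. The populations did not overlap in either gene.

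Among the genes next to the family in the genome, Atp2b4 and Btg2, which flank the cluster of Prelp and Fmod on chromosome 1, had fewer reads in DPPIV+ FAPs (-0.88 and -0.75 as log2 fold change). Fmod between them rose by 2.26 on the log2 scale. Nol8, next to Ogn on chromosome 13, had a log2 fold change of 0.15 with an adjusted p of 0.390 (edgeR QL F test).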
